A study of Mus musculus with 14 samples.

Results

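The lungs of mice that had been irradiated and rebuilt with wild-type (WT) bone marrow were set against the lungs of saline-injected mice that had received no marrow, all after the same fungal allergen. The comparison used 6 of the 14 RNA-seq libraries of the series. They were chosen by their labels: 2 libraries of WT recipients of WT marrow (WT chimeras), 2 libraries of WT mice given 10 µl of saline intrathecally and 2 libraries of WT mice given 100 µl of saline subcutaneously. A gene was called only if it differed in the same direction from each saline group.

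All mice were C57BL/6 and received Alternaria alternata extract, a fungal preparation that induces allergic lung inflammation, into the nose on 4 days, each dose 2 mg in a volume of 40 µl. The chimeras received 10000000 WT marrow cells within 24 hours of irradiation, and the labels name neither irradiation nor a transplant for the saline mice. A further 8 libraries served as separate libraries for a parallel comparison: 2 of recipients of WT marrow whose own cells bore a human JAK1 gain-of-function allele (GOF chimeras), 3 of mice given intrathecal resiniferatoxin (RTX, 25 ng for 2 days), and 3 of mice given subcutaneous RTX (30, 70 and 100 µg/kg over 3 days). RTX is a capsaicin analogue that ablates sensory neurons bearing the TRPV1 channel. The labels do not state the radiation dose, the interval between transplant and allergen, or the age and sex of donors and recipients. Chimeras, intrathecal mice and subcutaneous mice were deposited in 3 separate tables, 1 per experiment, so irradiation, transplant, cohort and any difference in handling between experiments cannot be told apart.

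In a marrow chimera, irradiation destroys the dividing cells of the recipient's marrow, and donor stem cells then supply its blood. Circulating neutrophils, monocytes and B cells turn over fast and become donor derived, whereas long-lived lung cells, such as alveolar macrophages and tissue-resident innate lymphocytes, are replaced slowly and in part. Radiation damages DNA, which activates the transcription factor p53 and its target genes. Alternaria makes the airway epithelium release interleukin-33, which drives innate lymphocytes and T helper cells to make interleukin-5 and interleukin-13, and these in turn induce alternatively activated macrophages, eosinophil chemokines and mucus.

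The 6 libraries held 20237371 to 22169153 estimated counts each, and 3 counts corresponded to 0.135 to 0.148 CPM (counts scaled to a library total of 1000000). Levels are given in CPM after trimmed-mean (TMM) scaling over all 14 libraries. Whether each library stands for its own mouse is not stated in the labels, so a p-value here reflects only how far these libraries spread, and that spread may be technical. Replicate libraries differed by more than sampling noise in every group, with a chi-square per degree of freedom of 8.91 or more. Of 8 genes that mark lung epithelium, endothelium, fibroblasts and alveolar macrophages, 0 were called in either direction, beside 1.07% of all genes. So few genes cannot show that the cell makeup of the lungs was alike. Below all 4 saline libraries lay 1 of the 8 and above them 0, beside 20.0% and 16.3% of all genes. The 1 below was Sftpc, the surfactant protein C gene of alveolar type 2 cells. It stood at 5856 and 6058 CPM in WT chimeras, against 8438 and 6867 CPM in intrathecal saline lungs and 10439 and 7839 CPM in subcutaneous saline lungs. In bulk tissue, fewer cells of a type and less RNA per cell cannot be told apart.

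Of 17646 genes tested, 103 (0.584%) were called higher in WT chimeras than in both saline groups, and 85 (0.482%) were called lower, at an edgeR quasi-likelihood adjusted p under 0.05 in each contrast, together 188 (1.07%). No gene was called in opposite directions against the 2 groups. Against intrathecal saline alone 202 genes (1.14%) were called, of which 116 were higher (0.657%) and 86 lower (0.487%). Against subcutaneous saline alone 2695 genes (15.3%) were called, of which 1270 were higher (7.20%) and 1425 lower (8.08%). Without adjustment, 3310 genes (18.8%) passed 0.05 against intrathecal and 5759 genes (32.6%) against subcutaneous saline. Subcutaneous and intrathecal saline lungs, which differ in experiment but not in transplantation, were told apart by 1 gene (0.00567%) in the same edgeR fit, although 2636 genes (14.9%) had an unadjusted p under 0.05 there, limma voom called 0 and DESeq2 called 429. Both chimera libraries lay above all 4 saline libraries for 2876 genes (16.3%) and below all 4 for 3536 genes (20.0%), in all 6412 genes (36.3%), so the called genes were a small part of those that did not overlap.

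Most calls needed both intrathecal saline libraries, which were the closest replicate pair of the series. Without intrathecal library 1, 5 genes were called higher and 0 lower, and without intrathecal library 2, 3 higher and 1 lower. Without chimera library 1, 38 genes were called higher and 23 lower, and without chimera library 2, 138 higher and 370 lower. Leaving out subcutaneous library 1 gave 109 higher and 103 lower, and leaving out subcutaneous library 2 gave 94 higher and 97 lower. Of the 55 called genes named here, 3 kept their call whichever library was left out, namely S100a9, Xist and Ighg1. All 55 kept the sign of their log2 fold change averaged over both saline groups.

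**Figure D1:**
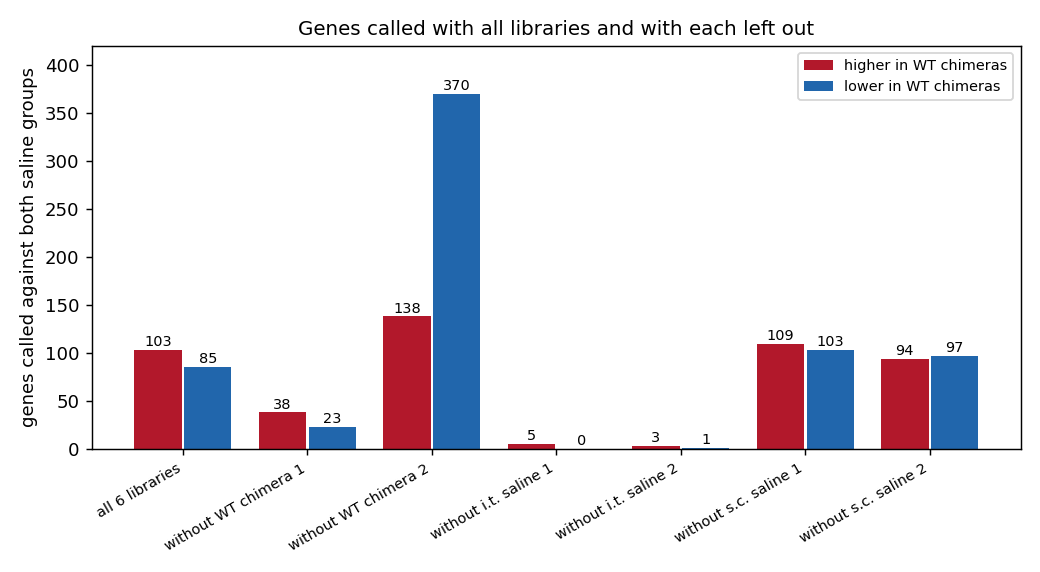
Number of genes (y axis) called higher (red) or lower (blue) in WT chimeras than in both saline groups, with all 6 libraries and with each library left out in turn (x axis; i.t., intrathecal; s.c., subcutaneous). With either intrathecal saline library left out, at most 5 genes were called in a direction, against 103 and 85 with all libraries.

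Genes of neutrophils and of inflammatory myeloid cells were among those called higher. Of 13 tested genes of a neutrophil list, 7 were called higher and 0 lower, beside 0.584% and 0.482% of all genes. The list's median log2 fold change was 2.31 against intrathecal and 2.05 against subcutaneous saline. Over all genes tested the medians were 0.01 and 0.01. S100a9, which encodes a subunit of the neutrophil protein calprotectin, stood at 89.9 and 98.8 CPM in WT chimeras, against 8.61 and 7.46 CPM in intrathecal saline lungs and 9.85 and 12.9 CPM in subcutaneous saline lungs. Both chimera libraries were far above all 4 saline libraries, with log2 fold changes of 3.56 ± 0.15 (SE, n = 2 against 2) and 3.06 ± 0.15 (edgeR adjusted p = 0.000233 and 0.000573). Its partner S100a8 stood at 46.8 and 54.3 CPM in WT chimeras, against 5.03 and 4.68 CPM with intrathecal and 5.25 and 8.88 CPM with subcutaneous saline.

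Csf3r, the receptor for granulocyte colony-stimulating factor, stood at 95.0 and 120.3 CPM in WT chimeras, against 19.6 and 21.5 CPM and 18.1 and 35.4 CPM in the intrathecal and subcutaneous saline lungs. Cd177, a neutrophil surface glycoprotein, reached 82.4 and 123 CPM in WT chimeras, against 16.6 and 18.05 CPM with intrathecal saline and 25.5 and 17.97 CPM with subcutaneous saline. Neither gene overlapped between chimera and saline libraries, and their log2 fold changes ran from 2.02 to 2.57. Mmp9, the neutrophil gelatinase gene, had log2 fold changes of 2.32 ± 0.23 and 2.05 ± 0.23 (SE; edgeR adjusted p = 0.0126 and 0.00791), and Mmp8, the neutrophil collagenase gene, of 1.59 ± 0.21 and 1.60 ± 0.21 (SE; edgeR adjusted p = 0.0211 and 0.0100). Mmp8 was chosen after its values were seen. Stfa2l1, a stefin-family gene of myeloid cells, was also called, at 3.12 and 3.11 CPM in WT chimeras, against 0.0907 and 0.136 CPM with intrathecal and 0.365 and 0.505 CPM with subcutaneous saline. Its intrathecal levels were at most 3 counts. Neither saline group reached 10 counts in both libraries, so it passed the low-count filter through the chimeras, and its call is no separate support.

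The neutrophil list was not uniform. Ly6g, the surface antigen that defines mouse neutrophils, was scarce everywhere, at 0.733 and 0.660 CPM in WT chimeras, against 0.272 and 0 CPM with intrathecal and 0.0456 and 0 CPM with subcutaneous saline, and it was not called. Retnlg, a resistin-like gene of mouse neutrophils, overlapped between the groups, with log2 fold changes of 0.10 and -0.45. The summed level of the list, untested members included, was 575 and 726 CPM in WT chimeras. With intrathecal saline it was 259 and 239 CPM, and with subcutaneous saline 177 and 263 CPM. The summed level of a red blood cell list stood the other way, and its values follow with the blood genes. Without either of the intrathecal libraries the calls of S100a8, Csf3r, Cd177, Mmp8, Mmp9 and Stfa2l1 ended, at edgeR adjusted p of up to 0.239 for the weaker contrast. Those of Csf3r and Stfa2l1 also ended without chimera library 1, and that of Csf3r without chimera library 2. Between 1 and 8 of the 13 genes were called over the 6 libraries left out in turn.

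A further 4 of the genes with the largest rises are known from myeloid cells. Clec4d and Clec4e encode C-type lectins that recognise glycolipids of fungi and mycobacteria. Clec4d stood at 15.2 and 15.6 CPM in WT chimeras, against 2.13 and 1.45 CPM with intrathecal and 1.69 and 1.62 CPM with subcutaneous saline, and Clec4e had log2 fold changes of 3.01 ± 0.22 and 3.14 ± 0.23 (SE; edgeR adjusted p = 0.00323 and 0.00339). Acod1, which makes the macrophage metabolite itaconate, stood at 8.57 and 14.2 CPM in WT chimeras, against 2.99 and 1.77 CPM with intrathecal and 1.09 and 1.62 CPM with subcutaneous saline. Slfn4, a Schlafen gene of myeloid cells, was called with log2 fold changes of 2.33 ± 0.19 and 2.23 ± 0.19 (SE; edgeR adjusted p = 0.00407 and 0.00381).

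Of 17 genes of monocytes and interstitial macrophages, 2 were called higher, beside 0.584% of all genes. Cx3cr1, the fractalkine receptor of patrolling monocytes and interstitial macrophages, stood at 37.0 and 42.4 CPM in WT chimeras, against 9.84 and 10.6 CPM with intrathecal and 12.1 and 9.69 CPM with subcutaneous saline. The groups were well apart, with log2 fold changes of 1.96 ± 0.15 and 1.86 ± 0.15 (SE; edgeR adjusted p = 0.00323 and 0.00362). Ms4a7, a macrophage membrane gene, had log2 fold changes of 1.37 and 1.28. The list's medians were 0.44 and 0.08, and 7 of its 17 genes lay above all 4 saline libraries, beside 16.3% of all genes.

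Of 11 acute phase genes 2 were called higher and 0 lower, beside 0.584% and 0.482% of all genes. Lcn2, which encodes a siderophore-binding protein of epithelium and neutrophils, stood at 642 and 717 CPM in WT chimeras, against 333 and 345 CPM with intrathecal and 507 and 403 CPM with subcutaneous saline. Orm1, an orosomucoid gene, had log2 fold changes of 2.49 and 1.78. Ccl5, a chemokine of T and natural killer cells, was the 1 called gene of a list of 15 cytotoxic genes, beside 0.584% of all genes called higher. It stood at 12.1 and 17.9 CPM in WT chimeras, against 4.13 and 4.96 CPM with intrathecal and 5.06 and 7.62 CPM with subcutaneous saline. Of that list 3 genes lay above and 2 below all saline libraries, beside 16.3% and 20.0% of all genes. Its medians were 0.35 and 0.25, and limma voom called 0 of its genes. The calls of Clec4d ended without intrathecal library 2, and those of Clec4e, Slfn4, Cx3cr1, Acod1, Ms4a7, Lcn2, Orm1 and Ccl5 without either, at edgeR adjusted p of up to 0.273. Without chimera library 1 the calls of Acod1, Ms4a7, Lcn2, Orm1 and Ccl5 also ended, and without chimera library 2 those of Acod1, Ms4a7, Lcn2 and Ccl5. Those of Ms4a7 and Ccl5 ended without subcutaneous library 1, and those of Lcn2 and Orm1 without subcutaneous library 2.

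Targets of p53 were also among the higher genes. Of 25 targets tested, 6 were called higher and 0 lower, beside 0.584% and 0.482% of all genes. Above all 4 saline libraries lay 16 and below them 1, beside 16.3% and 20.0% of all genes. The list's medians were 0.44 and 0.41. Eda2r, the receptor for ectodysplasin A2, stood at 18.5 and 14.4 CPM in WT chimeras, against 4.81 and 3.64 CPM with intrathecal and 4.01 and 4.34 CPM with subcutaneous saline. As a group the chimeras were about equally far from either saline group, with log2 fold changes of 1.97 ± 0.22 and 1.98 ± 0.22 (SE; edgeR adjusted p = 0.0143 and 0.00790).

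Phlda3, which encodes an inhibitor of the kinase Akt, stood at 112 and 117 CPM in WT chimeras, against 53.2 and 59.6 CPM with intrathecal and 54.1 and 62.7 CPM with subcutaneous saline. Cdkn1a encodes p21, the inhibitor of cyclin-dependent kinases that halts the cell cycle after DNA damage. It stood at 293 and 279 CPM in WT chimeras, against 166 and 170 CPM with intrathecal and 170 and 192 CPM with subcutaneous saline, and its log2 fold changes were 0.77 ± 0.09 and 0.67 ± 0.09 (SE; edgeR adjusted p = 0.0169 and 0.0102). Zmat3, an RNA-binding zinc finger gene, had log2 fold changes of 0.69 and 0.72. Gdf15, a secreted stress factor, stood at 9.39 and 11.02 CPM in WT chimeras, against 2.81 and 2.09 CPM with intrathecal and 4.84 and 2.42 CPM with subcutaneous saline. Psrc1, a spindle protein gene, had log2 fold changes of 0.93 and 0.77. Gdf15 and Psrc1 were chosen after their values were seen.

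Other well-known targets moved less. Ccng1, the cyclin G1 gene, lay above all saline libraries but was not called, at an edgeR adjusted p of 0.0608 against intrathecal saline. Mdm2, which encodes the ubiquitin ligase that degrades p53, overlapped with the saline libraries, at 144 and 117 CPM in WT chimeras, against 118 and 107 CPM with intrathecal and 87.5 and 83.6 CPM with subcutaneous saline. Without either of the intrathecal libraries the 6 calls ended, at edgeR adjusted p of up to 0.260, and without chimera library 1 those of Eda2r, Cdkn1a, Zmat3, Gdf15 and Psrc1 ended. Those of Gdf15 and Psrc1 also ended without chimera library 2 and without subcutaneous library 2, and that of Psrc1 without subcutaneous library 1. Between 0 and 5 of the 25 were called over the 6 libraries left out in turn. Across the 8 other libraries, 16 of the 25 were called higher in GOF chimeras than in both RTX groups and 1 lower. Over all genes these shares were 10.5% and 12.7%.

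**Figure D2:**
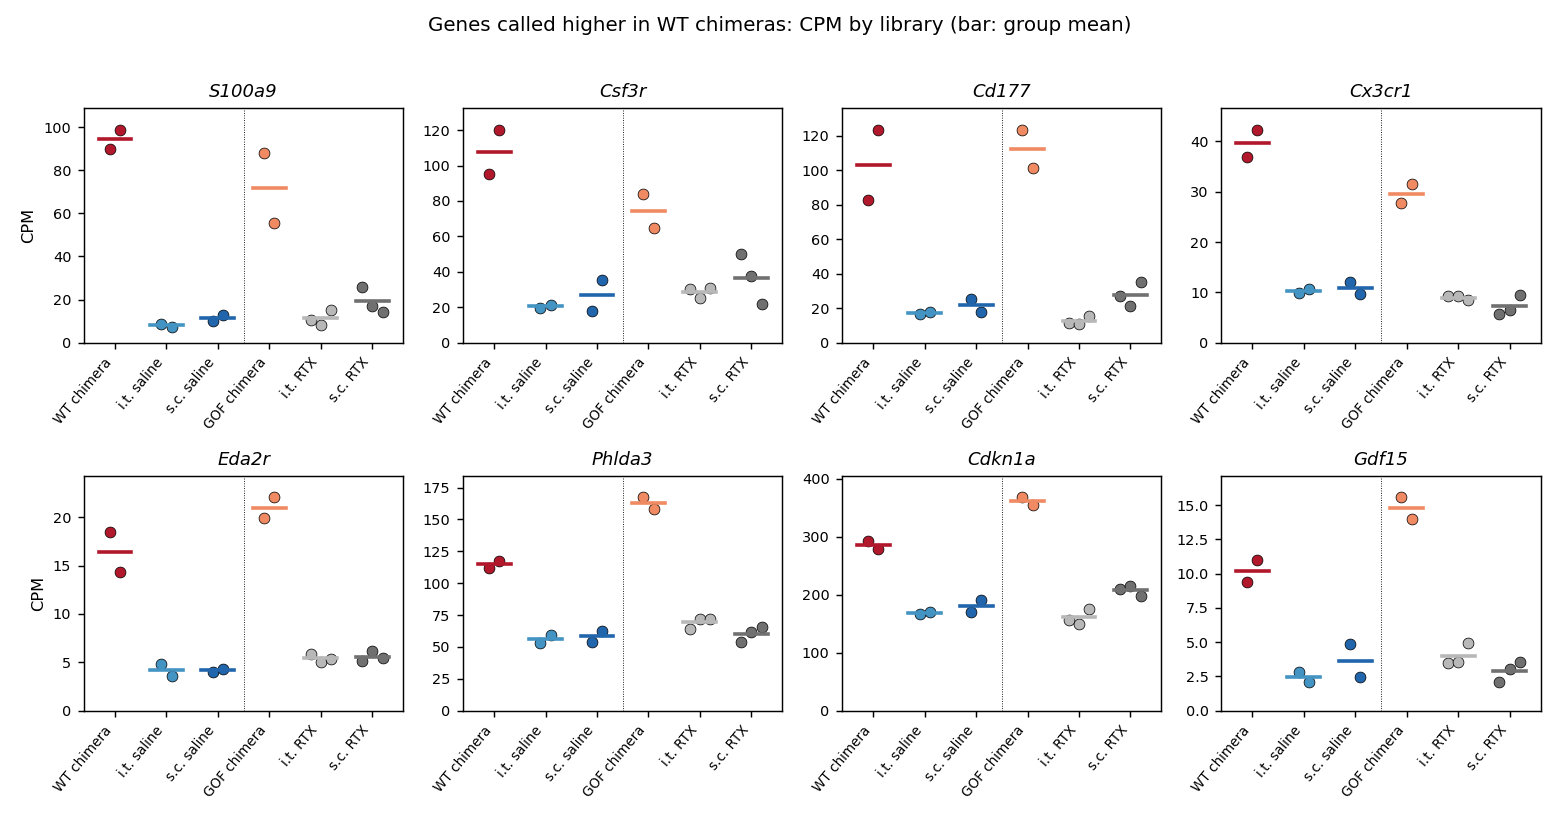
Level (y axis, CPM, linear from 0) of 8 genes called higher in WT chimeras, by group (x axis; each point 1 library, each bar a group mean; i.t., intrathecal; s.c., subcutaneous). Left of the dotted line are the 6 compared libraries, right of it the 8 others. The WT chimera points lie above every saline point in each panel, such as 89.9 and 98.8 CPM of S100a9, against at most 12.9 CPM with saline.

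The window at the first listed start of Cdkn1a is shown because a paired CATG, the core letters of a p53 binding half-site pair, lies in it. Promoters were taken from RefSeq on GRCm38.p6, 250 bases before to 50 after the annotated start, printed 5′ to 3′ on the gene's strand with motif letters in capitals. Where RefSeq lists more than 1 start for a symbol, as for Cdkn1a, the first was used. The window lies at chr17:29090729-29091028, plus strand.
Cdkn1a: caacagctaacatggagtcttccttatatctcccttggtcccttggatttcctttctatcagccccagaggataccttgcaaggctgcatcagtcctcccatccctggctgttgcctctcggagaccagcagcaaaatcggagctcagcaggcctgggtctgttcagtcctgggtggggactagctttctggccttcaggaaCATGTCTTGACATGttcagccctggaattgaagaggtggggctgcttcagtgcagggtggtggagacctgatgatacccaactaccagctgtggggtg
The capitals mark CATGNNNNNNCATG, searched on both strands, which 208 of 27025 promoters held (0.77%). Of the 20 matched promoters of the p53 list, 1 held it. A match is a description of letters and not a site of binding.

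Genes of the type 2 response were among those called lower. Of 15 tested genes of alternatively activated macrophages, 2 were called lower and 0 higher, beside 0.482% and 0.584% of all genes. Below all 4 saline libraries lay 14, beside 20.0% of all genes, and the list's medians were -1.15 and -1.61. Retnla, which encodes the secreted macrophage protein RELM alpha, stood at 779 and 1448 CPM in WT chimeras, against 4002 and 3570 CPM with intrathecal and 5325 and 4775 CPM with subcutaneous saline. The groups did not overlap, although chimera library 2 was the closer to the saline libraries, and the log2 fold changes were -1.76 ± 0.28 and -2.18 ± 0.28 (SE; edgeR adjusted p = 0.0428 and 0.0103). Chil4, which encodes the chitinase-like protein Ym2, stood at 56.2 and 110 CPM in WT chimeras, against 482 and 610 CPM with intrathecal and 745 and 660 CPM with subcutaneous saline. Its relative Chil3 (Ym1) lay below all saline libraries but missed the threshold against intrathecal saline, at an edgeR adjusted p of 0.0958, and reads of these near-identical paralogs may be split between them by the counting.

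Receptors of 2 alarmins were called lower. Of 16 tested genes of type 2 lymphocytes, 2 were called lower and 0 higher, beside 0.482% and 0.584% of all genes. Below all 4 saline libraries lay 10 and above them 2, beside 20.0% and 16.3% of all genes. A positive log2 fold change against both saline groups was found for 4, and the list's medians were -0.64 and -0.96. Il1rl1, which encodes the interleukin-33 receptor ST2, stood at 10.3 and 15.9 CPM in WT chimeras, against 46.7 and 45.1 CPM with intrathecal and 36.1 and 60.2 CPM with subcutaneous saline. Il17rb, which encodes the receptor subunit for interleukin-25, stood at 2.24 and 2.31 CPM in WT chimeras, against 9.07 and 9.41 CPM with intrathecal and 9.85 and 11.4 CPM with subcutaneous saline. Its groups were tight and far apart, with log2 fold changes of -2.01 ± 0.19 and -2.21 ± 0.19 (SE; edgeR adjusted p = 0.0104 and 0.00381).

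The type 2 cytokines lay below all 4 saline libraries but were not called. Il13, the cytokine that induces mucus and alternative activation, stood at 0.412 and 1.08 CPM in WT chimeras, against 6.03 and 8.82 CPM with intrathecal and 6.89 and 15.3 CPM with subcutaneous saline. With log2 fold changes of -3.30 ± 0.56 and -3.88 ± 0.56 (SE), it missed the call against intrathecal saline (edgeR adjusted p = 0.0517 and 0.0120). Il5, the eosinophil growth factor, stood at 0.321 and 0.283 CPM in WT chimeras, against 3.58 and 5.27 CPM with intrathecal and 5.20 and 15.3 CPM with subcutaneous saline, and its edgeR adjusted p were 0.0557 and 0.0103. Il4 had log2 fold changes of -1.87 and -2.33 and was not called either.

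Of 10 tested alarmins and type 2 chemokines, 0 were called in either direction by edgeR with all 6 libraries. Below all saline libraries lay 6, beside 20.0% of all genes. Without chimera library 2, 4 were called lower, without chimera library 1, 3 lower and 1 higher, and by DESeq2 5 lower and 1 higher. Il33, the epithelial alarmin, stood at 96.5 and 207 CPM in WT chimeras, against 488 and 452 CPM with intrathecal and 601 and 603 CPM with subcutaneous saline (edgeR adjusted p = 0.0851 and 0.0197). Ccl11, the eosinophil chemokine eotaxin 1, stood at 11.8 and 29.5 CPM in WT chimeras, against 116 and 119 CPM with intrathecal and 149 and 202 CPM with subcutaneous saline (edgeR adjusted p = 0.0705 and 0.0168). Ccl24, the macrophage chemokine eotaxin 2, stood at 5.96 and 26.9 CPM in WT chimeras, against 130 and 169 CPM with intrathecal and 144 and 395 CPM with subcutaneous saline. For each of these genes chimera library 2 was the closer to the saline groups.

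Of 13 tested goblet cell genes 12 had a negative log2 fold change against both saline groups, beside 6611 of all 17646 genes. Beside 20.0% of all genes, 6 lay below all saline libraries, and the list's medians were -1.08 and -0.92. None was called by edgeR with all 6 libraries, against 3 without chimera library 2, 1 without chimera library 1 and 3 by DESeq2. Clca1, a secreted goblet cell protein induced by interleukin-13, stood at 431 and 715 CPM in WT chimeras, against 2150 and 1504 CPM with intrathecal and 2803 and 1820 CPM with subcutaneous saline (edgeR adjusted p = 0.0700 and 0.0162). Muc5ac, the inducible airway mucin, overlapped between the groups, at 70.2 and 131 CPM in WT chimeras, against 199 and 120 CPM with intrathecal and 185 and 135 CPM with subcutaneous saline.

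Arg1, the arginase of alternatively activated macrophages, lay below all saline libraries and was not called, with log2 fold changes of -1.42 ± 0.62 and -1.72 ± 0.62 (SE; edgeR adjusted p = 0.307 and 0.133). Without either of the intrathecal libraries the calls of Retnla, Chil4, Il1rl1 and Il17rb ended, at edgeR adjusted p of up to 0.250, and those of Retnla and Chil4 also ended without either of the subcutaneous libraries, and that of Il1rl1 without chimera library 1. Over the 6 libraries left out in turn, 0 to 7 of the 15 macrophage genes were called lower, and DESeq2 with all 6 libraries called 7. In the 8 other libraries all 15 were called lower in GOF chimeras than in both RTX groups, beside 12.7% of all genes.

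Among 17 genes of alveolar macrophages, 4 lay above and 8 below all saline libraries, beside 16.3% and 20.0% of all genes. Krt79, a keratin gene read in mouse alveolar macrophages, was the 1 called gene of that list, beside 0.482% of all genes called lower. It stood at 2.75 and 2.54 CPM in WT chimeras, against 10.4 and 11.3 CPM with intrathecal and 23.6 and 15.2 CPM with subcutaneous saline. Cish and Socs2, feedback inhibitors of cytokine receptors that STAT5 induces, were both called and were chosen after their values were seen. Socs2 stood at 101 and 99.4 CPM in WT chimeras, against 159 and 149 CPM with intrathecal and 190 and 195 CPM with subcutaneous saline, and Cish had log2 fold changes of -0.80 ± 0.12 and -1.06 ± 0.12 (SE; edgeR adjusted p = 0.0337 and 0.00790).

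The remaining genes with large falls belonged to no single list. Fgf23, which encodes a hormone of phosphate balance, stood at 0.504 and 1.79 CPM in WT chimeras, against 13.6 and 10.1 CPM with intrathecal and 15.0 and 21.6 CPM with subcutaneous saline. Pla2g4c, a cytosolic phospholipase gene, stood at 2.66 and 5.46 CPM in WT chimeras, against 33.1 and 37.5 CPM with intrathecal and 26.2 and 18.7 CPM with subcutaneous saline. In neither gene did chimera and saline libraries overlap. Sox9, a transcription factor of airway progenitors and cartilage, had log2 fold changes of -2.26 ± 0.24 and -2.15 ± 0.24 (SE; edgeR adjusted p = 0.0127 and 0.00790).

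Corin, the protease that activates atrial natriuretic peptide, had log2 fold changes of -2.31 and -2.17. Adra2a, the alpha-2A adrenergic receptor gene, stood at 3.94 and 4.004 CPM in WT chimeras, against 16.5 and 13.6 CPM with intrathecal and 18.1 and 13.5 CPM with subcutaneous saline. Ackr1, a chemokine-binding receptor of venules and red cells, differed more from subcutaneous saline (log2 fold change -3.42) than from intrathecal saline (-1.88). Apob, the main lipoprotein gene, and Sapcd2, which orients the mitotic spindle, had log2 fold changes between -1.81 and -2.27. Actg2, a smooth muscle actin gene, had log2 fold changes of -0.64 and -0.70. It was the 1 called gene of 13 in its list, beside 0.482% of all genes called lower. That list was mixed, with 5 genes above and 4 below all saline libraries, beside 16.3% and 20.0% of all genes. Its medians were -0.05 and 0.22. The calls of Fgf23, Pla2g4c, Sox9, Corin, Adra2a, Ackr1, Apob, Sapcd2, Actg2, Krt79, Cish and Socs2 ended without either of the intrathecal libraries, at edgeR adjusted p of up to 0.253, and those of Corin, Adra2a, Ackr1, Apob, Actg2, Krt79, Cish and Socs2 also without chimera library 1. That of Apob ended without chimera library 2 too.

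Genes of cell division were lower as a group. Of 20 proliferation genes tested, 3 were called lower and 0 higher, beside 0.482% and 0.584% of all genes. All 20 lay below all 4 saline libraries, beside 20.0% of all genes, and the list's medians were -0.96 and -1.07. Ccnb2, which encodes the mitotic cyclin B2, stood at 9.67 and 12.2 CPM in WT chimeras, against 22.3 and 22.0 CPM with intrathecal and 24.4 and 28.2 CPM with subcutaneous saline. Ube2c, the ubiquitin-conjugating partner of the anaphase-promoting complex, stood at 8.43 and 12.7 CPM in WT chimeras, against 23.1 and 27.4 CPM with intrathecal and 25.9 and 32.1 CPM with subcutaneous saline. Aurka, a spindle kinase gene, had log2 fold changes of -0.95 ± 0.17 and -1.26 ± 0.17 (SE; edgeR adjusted p = 0.0484 and 0.0100).

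Cdc20, an activator of the anaphase-promoting complex, was outside the list and chosen after its values were seen. It stood at 13.7 and 17.6 CPM in WT chimeras, against 42.2 and 42.1 CPM with intrathecal and 35.8 and 47.7 CPM with subcutaneous saline (edgeR adjusted p = 0.0186 and 0.00894). Without either of the intrathecal libraries, or without chimera library 1, these 4 calls ended, at edgeR adjusted p of up to 0.253, while without chimera library 2 more were called, so that 0 to 17 of the 20 genes were called over the 6 libraries left out in turn. DESeq2 called 17 and a fit of all 14 libraries 19. The summed level of the list was 320 and 504 CPM in WT chimeras. With intrathecal saline it was 745 and 799 CPM, and with subcutaneous saline 750 and 918 CPM. All 20 genes were also called lower in GOF chimeras than in both RTX groups, beside 12.7% of all genes.

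**Figure D3:**
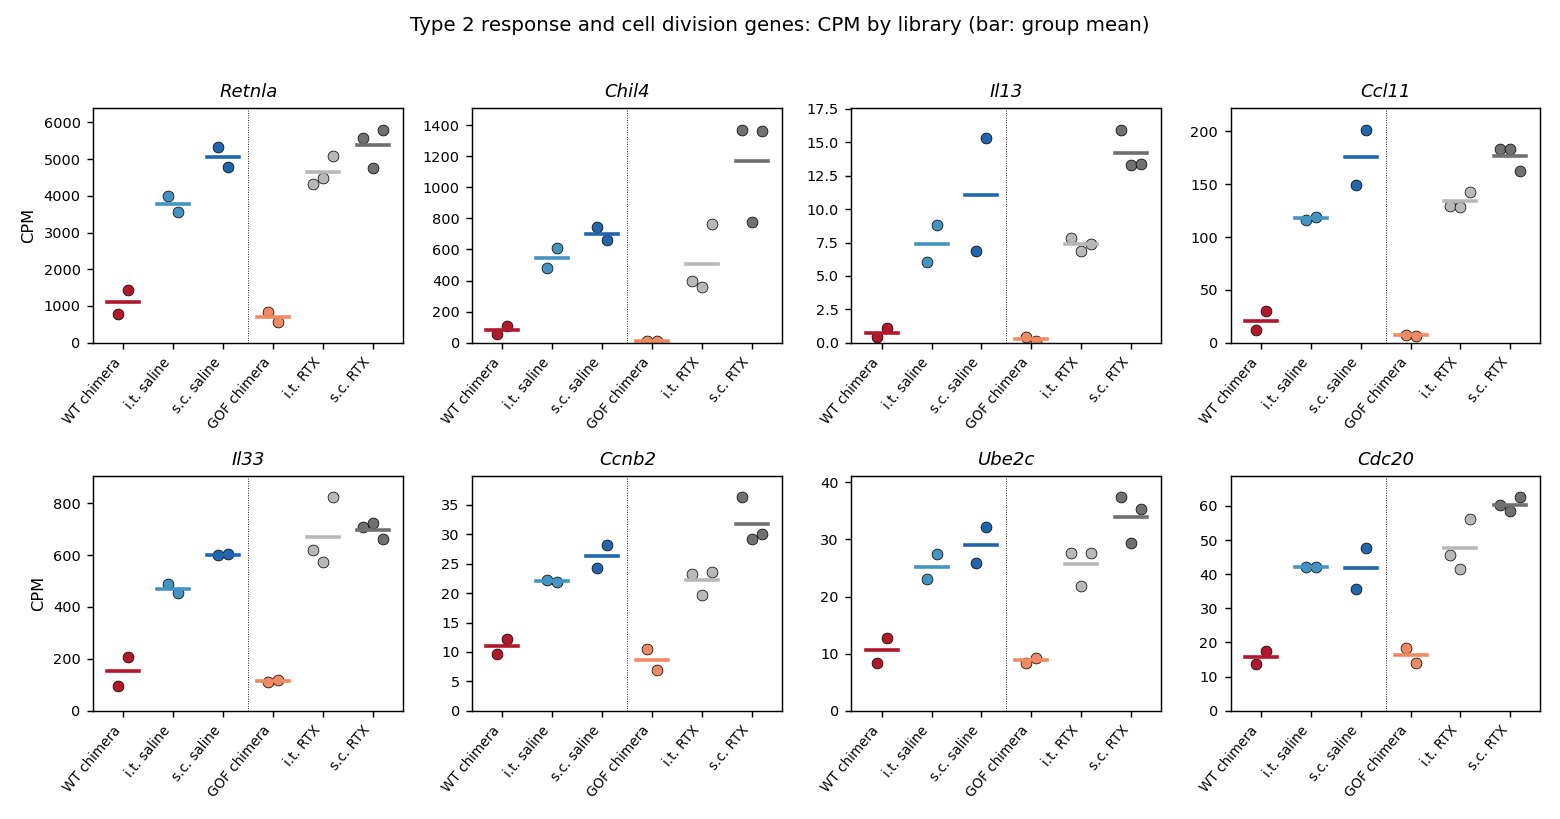
Level (y axis, CPM, linear from 0) of 5 type 2 response genes and 3 cell division genes, by group (x axis; each point 1 library, each bar a group mean; i.t., intrathecal; s.c., subcutaneous). Left of the dotted line are the 6 compared libraries, right of it the 8 others. The chimera points of either genotype lie below the points of the mice without a transplant in each panel, such as 779 and 1448 CPM of Retnla, against at least 3570 CPM with saline.

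The promoters of these 4 cell division genes are shown because they share letters that many mitotic genes carry at the start of transcription: CCAAT, which the factor NF-Y binds, and TTTGAA, the cell cycle homology element bound by the MuvB complexes. TTTGAA stands in capitals where it occurs on either strand, and so does CCAAT. The windows, from RefSeq on GRCm38.p6, are Cdc20 at chr4:118437294-118437593, minus strand, Ccnb2 at chr9:70421505-70421804, minus strand, Ube2c at chr2:164769679-164769978, plus strand, and Aurka at chr2:172370521-172370820, minus strand.
Cdc20: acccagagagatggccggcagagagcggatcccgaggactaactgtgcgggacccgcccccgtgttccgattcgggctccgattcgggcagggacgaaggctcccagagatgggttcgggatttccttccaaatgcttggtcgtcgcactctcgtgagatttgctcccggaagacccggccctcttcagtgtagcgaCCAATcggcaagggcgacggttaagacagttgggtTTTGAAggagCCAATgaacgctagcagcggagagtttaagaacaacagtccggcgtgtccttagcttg
Ccnb2: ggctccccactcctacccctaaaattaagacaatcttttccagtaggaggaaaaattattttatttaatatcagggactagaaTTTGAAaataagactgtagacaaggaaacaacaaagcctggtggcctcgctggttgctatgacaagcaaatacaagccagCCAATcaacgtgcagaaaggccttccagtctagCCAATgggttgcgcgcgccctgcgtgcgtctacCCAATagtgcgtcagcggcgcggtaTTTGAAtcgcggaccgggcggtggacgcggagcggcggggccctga
Ube2c: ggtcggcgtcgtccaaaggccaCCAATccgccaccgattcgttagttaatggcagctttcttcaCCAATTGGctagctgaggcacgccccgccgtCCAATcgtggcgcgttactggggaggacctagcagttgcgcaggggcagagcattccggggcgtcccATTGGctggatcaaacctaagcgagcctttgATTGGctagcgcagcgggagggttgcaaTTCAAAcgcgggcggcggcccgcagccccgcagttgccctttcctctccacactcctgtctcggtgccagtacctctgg
Aurka: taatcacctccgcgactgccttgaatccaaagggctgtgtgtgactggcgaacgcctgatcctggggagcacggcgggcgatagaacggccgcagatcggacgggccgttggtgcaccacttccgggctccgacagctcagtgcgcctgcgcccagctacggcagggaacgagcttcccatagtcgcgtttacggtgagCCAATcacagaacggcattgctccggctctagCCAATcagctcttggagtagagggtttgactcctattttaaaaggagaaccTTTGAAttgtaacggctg
In Ube2c a forward and a reverse CCAAT overlap. Of 17 matched promoters of the proliferation list 10 held TTTGAA and 15 held CCAAT, beside 18.1% and 37.9% of all 27025 promoters of the same length. The matches describe letters in these windows only.

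Chaperone genes were lower too. Of 15 heat shock genes tested, 3 were called lower and 0 higher, beside 0.482% and 0.584% of all genes. All 15 were below both saline means, beside 6611 of all 17646 genes, and the list's medians were -0.86 and -0.79. Hspd1, which encodes the mitochondrial chaperonin, stood at 116 and 154 CPM in WT chimeras, against 239 and 255 CPM with intrathecal and 236 and 232 CPM with subcutaneous saline. Dnaja1, a partner of the Hsp70 chaperones, stood at 220 and 334 CPM in WT chimeras, against 657 and 627 CPM with intrathecal and 588 and 501 CPM with subcutaneous saline. Chordc1, a partner of Hsp90, had log2 fold changes of -1.10 ± 0.16 and -0.87 ± 0.16 (SE; edgeR adjusted p = 0.0330 and 0.0178).

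Hspa1b, an inducible Hsp70 gene, was the most uneven, at 34.8 and 74.5 CPM in WT chimeras, against 479 and 344 CPM with intrathecal and 221 and 137 CPM with subcutaneous saline, and it was not called (edgeR adjusted p = 0.0685 and 0.0632). Its near-identical neighbour Hspa1a may share reads with it. Of 14 genes of endoplasmic reticulum stress, 2 were called lower and 0 higher, beside 0.482% and 0.584% of all genes. All 14 were below both saline means, beside 6611 of all 17646 genes, and the list's medians were -0.72 and -0.73. Herpud1 and Dnajb9, which take part in the disposal of misfolded proteins, were those called. Herpud1 stood at 141 and 128 CPM in WT chimeras, against 223 and 224 CPM with intrathecal and 213 and 193 CPM with subcutaneous saline.

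In the 8 other libraries, Hspa1b lay between the RTX groups. It stood at 152 and 110 CPM in GOF chimeras, against 87.3, 67.0 and 51.4 CPM with intrathecal RTX and 449, 285 and 309 CPM with subcutaneous RTX. Of the 15 heat shock genes 5 were called lower in GOF chimeras than in both RTX groups, beside 12.7% of all genes. The calls of Hspd1, Dnaja1, Chordc1, Herpud1 and Dnajb9 ended without either of the intrathecal libraries, at edgeR adjusted p of up to 0.244, those of Hspd1, Dnaja1, Chordc1 and Dnajb9 without chimera library 1, those of Dnaja1, Chordc1 and Dnajb9 without subcutaneous library 1, and those of Dnaja1 and Dnajb9 without subcutaneous library 2. Over the 6 libraries left out in turn, 0 to 9 heat shock genes and 0 to 10 endoplasmic reticulum stress genes were called lower, the highest counts without chimera library 2. DESeq2 called 10 and 8 of them.

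The promoters of Chordc1 and Dnaja1 are shown because they hold GAANNTTC, the core of the element that heat shock factor binds. They lie at chr9:18292017-18292316, plus strand, and chr4:40722218-40722517, plus strand (RefSeq on GRCm38.p6, the first listed start of Dnaja1), and the capitals mark GAANNTTC, which reads the same on both strands.
Chordc1: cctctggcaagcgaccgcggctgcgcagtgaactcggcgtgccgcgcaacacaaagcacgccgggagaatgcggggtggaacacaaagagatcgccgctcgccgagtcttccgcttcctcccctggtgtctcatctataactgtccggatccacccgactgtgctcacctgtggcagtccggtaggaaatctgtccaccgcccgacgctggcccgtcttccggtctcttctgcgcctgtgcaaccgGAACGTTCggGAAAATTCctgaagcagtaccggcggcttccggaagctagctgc
Dnaja1: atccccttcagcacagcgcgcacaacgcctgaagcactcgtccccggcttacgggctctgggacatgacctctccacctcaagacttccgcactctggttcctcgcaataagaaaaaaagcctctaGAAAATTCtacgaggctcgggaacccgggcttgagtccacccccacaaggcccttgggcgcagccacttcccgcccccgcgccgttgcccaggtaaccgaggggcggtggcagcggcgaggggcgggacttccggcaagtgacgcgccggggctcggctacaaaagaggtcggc
Of 12 matched promoters of the heat shock list 9 held it, beside 7.95% of all 27025 promoters. That of Hspd1 did not.

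Transcripts of blood cells and antibodies differed in both directions. Of 8 tested red blood cell genes 0 were called by edgeR and 7 lay below all saline libraries, beside 20.0% of all genes. The list's medians were -1.81 and -2.12. Without chimera library 2, 5 were called lower, and DESeq2 with all 6 libraries called 3. Hbb-bs, a beta globin gene, stood at 126 and 299.9 CPM in WT chimeras, against 739 and 780 CPM with intrathecal and 1254 and 763 CPM with subcutaneous saline (edgeR adjusted p = 0.133 and 0.0348), and Alas2, the haem synthesis enzyme of red cells, had log2 fold changes of -1.90 and -2.07. The summed level of the list, untested members included, was 321 and 868 CPM in WT chimeras. With intrathecal saline it was 2037 and 2201 CPM, and with subcutaneous saline 3456 and 2066 CPM. The part of blood content in the levels of neutrophil and other blood cell genes was not tested.

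Of 12 tested antibody constant region and J chain genes, 3 were called higher and 0 lower, beside 0.584% and 0.482% of all genes. Ighg1, the IgG1 heavy chain gene, stood at 19.4 and 14.9 CPM in WT chimeras, against 0.317 and 0.136 CPM with intrathecal and 0.639 and 0.555 CPM with subcutaneous saline, with log2 fold changes of 6.21 ± 0.35 and 4.83 ± 0.31 (SE; edgeR adjusted p = 0.000866 and 0.00170). Ighg2b, the IgG2b gene, stood at 35.5 and 22.5 CPM in WT chimeras, against 1.77 and 2.14 CPM with intrathecal and 5.47 and 9.59 CPM with subcutaneous saline. Ighd, the IgD gene of mature naive B cells, stood at 36.2 and 25.8 CPM in WT chimeras, against 8.89 and 10.2 CPM with intrathecal and 10.8 and 13.5 CPM with subcutaneous saline.

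Other antibody genes depended on which saline group was used. Igha, the IgA gene, stood at 247 and 169 CPM in WT chimeras, against 9.38 and 13.5 CPM with intrathecal and 133 and 91.6 CPM with subcutaneous saline (edgeR adjusted p = 0.00803 and 0.0672). Ighm, the IgM gene, stood at 106 and 232 CPM in WT chimeras, against 275 and 134 CPM with intrathecal and 1076 and 506 CPM with subcutaneous saline, so that it overlapped with the intrathecal libraries and lay below the subcutaneous ones. Jchain, which joins IgA and IgM units, had log2 fold changes of 1.60 and -0.90. The list's medians had opposite signs, at 1.58 and -0.59.

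A pair of variable gene segments was called in opposite directions. Ighv1-64 stood at 7.74 and 13.1 CPM in WT chimeras, against 0.363 and 0.318 CPM with intrathecal and 3.51 and 1.06 CPM with subcutaneous saline. Ighv12-3 stood at 0.229 and 0.141 CPM in WT chimeras, against 4.53 and 2.27 CPM with intrathecal and 13.6 and 10.95 CPM with subcutaneous saline. Its chimera levels were near 3 counts (0.143 and 0.144 CPM), so it passed the low-count filter through the saline groups, and the size of its fall is uncertain. Variable segments are similar in sequence, so the split of reads between them is uncertain.

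Of 20 B and plasma cell genes 2 were called higher and 0 lower, beside 0.584% and 0.482% of all genes. The list's medians were 0.74 and 0.16. Cd79a, a chain of the B-cell receptor complex, stood at 31.7 and 28.9 CPM in WT chimeras, against 13.6 and 13.7 CPM with intrathecal and 23.0 and 21.1 CPM with subcutaneous saline. Pax5, the B-cell lineage factor, had log2 fold changes of 1.03 and 0.74. Without intrathecal library 1 the calls of Ighg2b, Ighd, Ighv1-64, Ighv12-3, Cd79a and Pax5 ended, at edgeR adjusted p of up to 0.274. Without intrathecal library 2 they ended except that of Ighv12-3. Without chimera library 1 those of Ighg2b, Ighv1-64, Ighv12-3, Cd79a and Pax5 ended, without chimera library 2 that of Ighv1-64, without subcutaneous library 1 those of Cd79a and Pax5, and without subcutaneous library 2 those of Ighv1-64, Cd79a and Pax5.

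Xist, the noncoding RNA made from the inactive X chromosome, gave the smallest adjusted p of the genes named. It stood at 117 and 130 CPM in WT chimeras, against 3.67 and 3.00 CPM with intrathecal and 0.912 and 1.01 CPM with subcutaneous saline, with log2 fold changes of 5.22 ± 0.13 and 7.005 ± 0.16 (SE; edgeR adjusted p = 8.60e-06 and 3.29e-06). GOF chimeras also had it, at 61.7 and 72.0 CPM, against 1.01, 1.14 and 2.50 CPM with intrathecal RTX and 1.27, 5.10 and 5.17 CPM with subcutaneous RTX. The Y-linked genes Ddx3y, Kdm5d, Uty and Eif2s3y were read in all 14 libraries. Ddx3y, an RNA helicase gene, stood at 71.7 and 57.4 CPM in WT chimeras, against 84.7 and 80.4 CPM with intrathecal and 77.7 and 84.6 CPM with subcutaneous saline. The 4 Y-linked genes had log2 fold changes of -0.20 to -0.35 and were not called. Xist and Y-linked transcripts were thus read together in the chimera lungs, and the part of donor or recipient sex in the results was not tested.

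**Figure D4:**
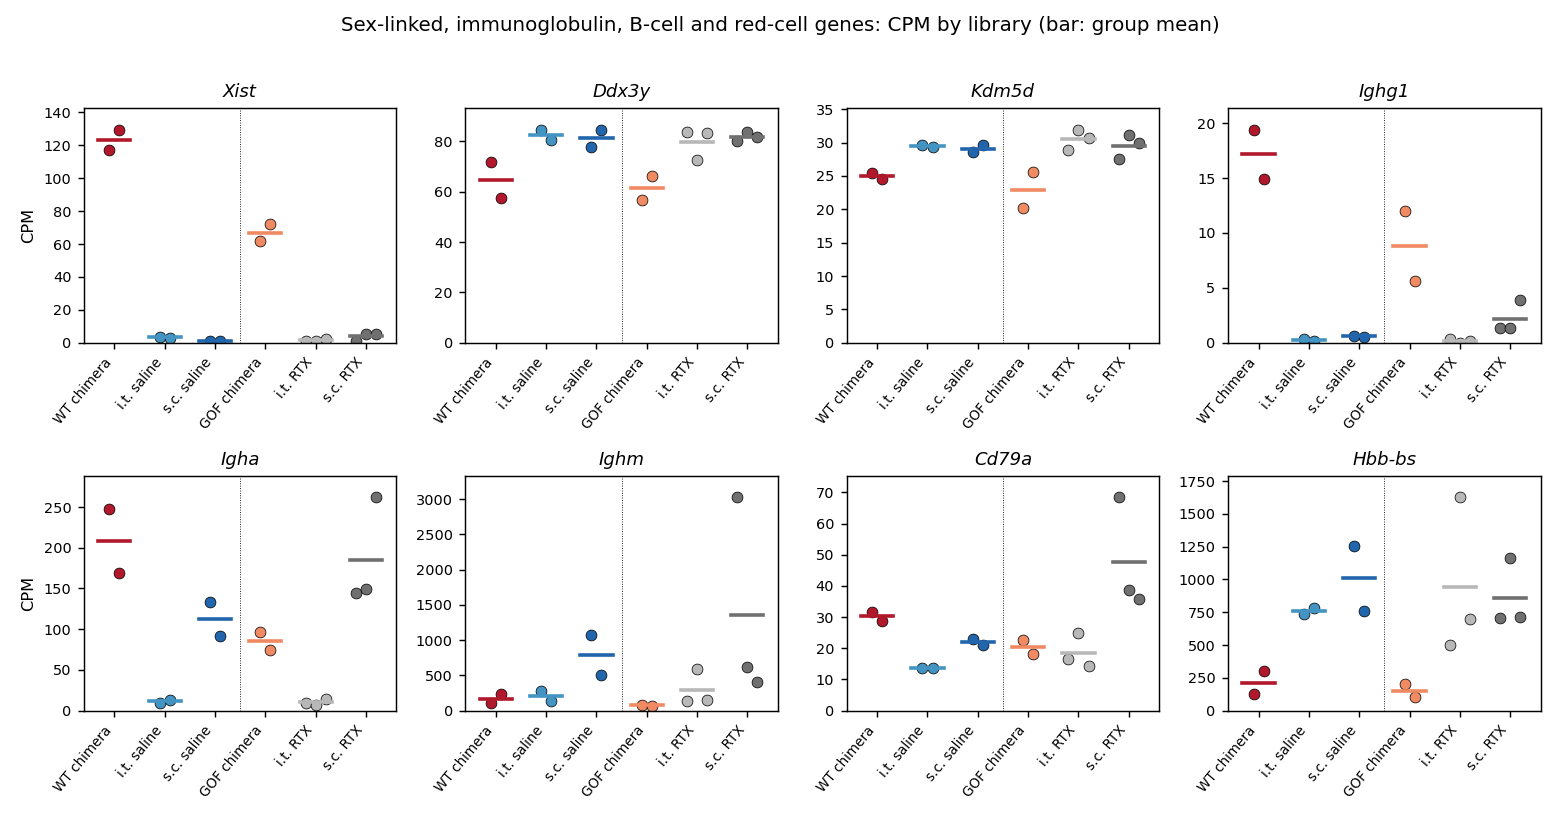
Level (y axis, CPM, linear from 0) of sex-linked, antibody, B-cell and globin genes, by group (x axis; each point 1 library, each bar a group mean; i.t., intrathecal; s.c., subcutaneous). Left of the dotted line are the 6 compared libraries, right of it the 8 others. Xist lies at 117 and 130 CPM in WT chimeras, against at most 3.67 CPM with saline. The points of Igha and Ighm do not overlap between the saline groups, although neither gene was called there.

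The 188 genes called in WT chimeras were read in the 8 other libraries, which share no library with the 6. They share the experiments: GOF and WT chimeras came from 1 table, and each RTX group from that of its saline group, while the GOF genotype and the ablation of sensory neurons were added. Against both RTX groups, 1884 genes (10.5% of 17923) were called higher and 2274 (12.7%) lower in GOF chimeras. Of the 103 genes called higher in WT chimeras, 64 (62.1%) were called higher there too, which was 3.40% of the 1884, and 92 had a positive log2 fold change against both RTX groups. Of the 85 called lower, 72 (84.7%) were called lower there, which was 3.17% of the 2274, and 79 had a negative log2 fold change against both. None of the 188 was called in the opposite direction.

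Among the named genes, S100a8, S100a9, Csf3r, Cd177, Mmp9, Clec4d, Clec4e, Cx3cr1, Xist, Ighg1 and the 6 called p53 targets were called higher in GOF chimeras. S100a9 stood at 87.9 and 55.3 CPM in GOF chimeras, against 10.6, 8.36 and 15.0 CPM with intrathecal RTX and 25.8, 17.2 and 14.3 CPM with subcutaneous RTX. Phlda3 stood at 167 and 158 CPM in GOF chimeras, against 64.4, 72.1 and 71.6 CPM with intrathecal and 53.7, 61.6 and 65.5 CPM with subcutaneous RTX. Among those called in WT chimeras but not here were Mmp8, Acod1, Slfn4, Ms4a7, Ighd, Ighg2b, Ighv1-64, Cd79a and Pax5. Ighg2b stood at 9.71 and 7.62 CPM in GOF chimeras, against 2.56, 1.68 and 1.75 CPM with intrathecal RTX and 20.6, 13.0 and 21.3 CPM with subcutaneous RTX.

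Among the lower genes Retnla stood at 833 and 567 CPM in GOF chimeras, against 4327, 4492 and 5089 CPM with intrathecal RTX and 5571, 4766 and 5805 CPM with subcutaneous RTX. Chil4 stood at 11.7 and 10.97 CPM in GOF chimeras, against 394, 360 and 766 CPM with intrathecal RTX and 1372, 775 and 1363 CPM with subcutaneous RTX. Il13, Il5, Il4, Il33, Ccl11, Ccl24 and Clca1, which missed the call in WT chimeras, were called lower in GOF chimeras, as was Muc5ac. Whether the differences were larger in GOF than in WT chimeras was not tested.

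Among the lists of structural lung cells, no gene was called by edgeR in the lists of alveolar type 1 cells, alveolar type 2 cells, club cells, ciliated cells, endothelium and fibroblasts, of 13, 15, 11, 12, 19 and 17 tested genes. Over all genes 1.07% were called, so 0 calls cannot show that these lists were unchanged. DESeq2 called 2 alveolar type 2 genes and 1 club cell gene lower, and 2 endothelial genes higher and 1 lower. In the lists of alveolar type 1 cells, ciliated cells and fibroblasts it called 0. The medians of the structural lists ran from -0.25 to 0.24, but 7 of the 15 alveolar type 2 genes lay below all 4 saline libraries, beside 20.0% of all genes, and 7 of the 19 endothelial genes above all 4, beside 16.3%. Of 7 basal cell genes 0 were called either, with medians of 0.15 and 0.91. T cell genes had medians of 0.32 and -0.29 and antigen-presentation genes of MHC class II of -0.03 and -0.45, also with 0 called by edgeR of 25 and 11. DESeq2 called 1 of the class II genes higher. Scgb1a1, the secretoglobin of club cells, stood at 7869 and 6107 CPM in WT chimeras, against 8376 and 7592 CPM with intrathecal and 11023 and 7142 CPM with subcutaneous saline, so that its groups overlapped.

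**Figure D5:**
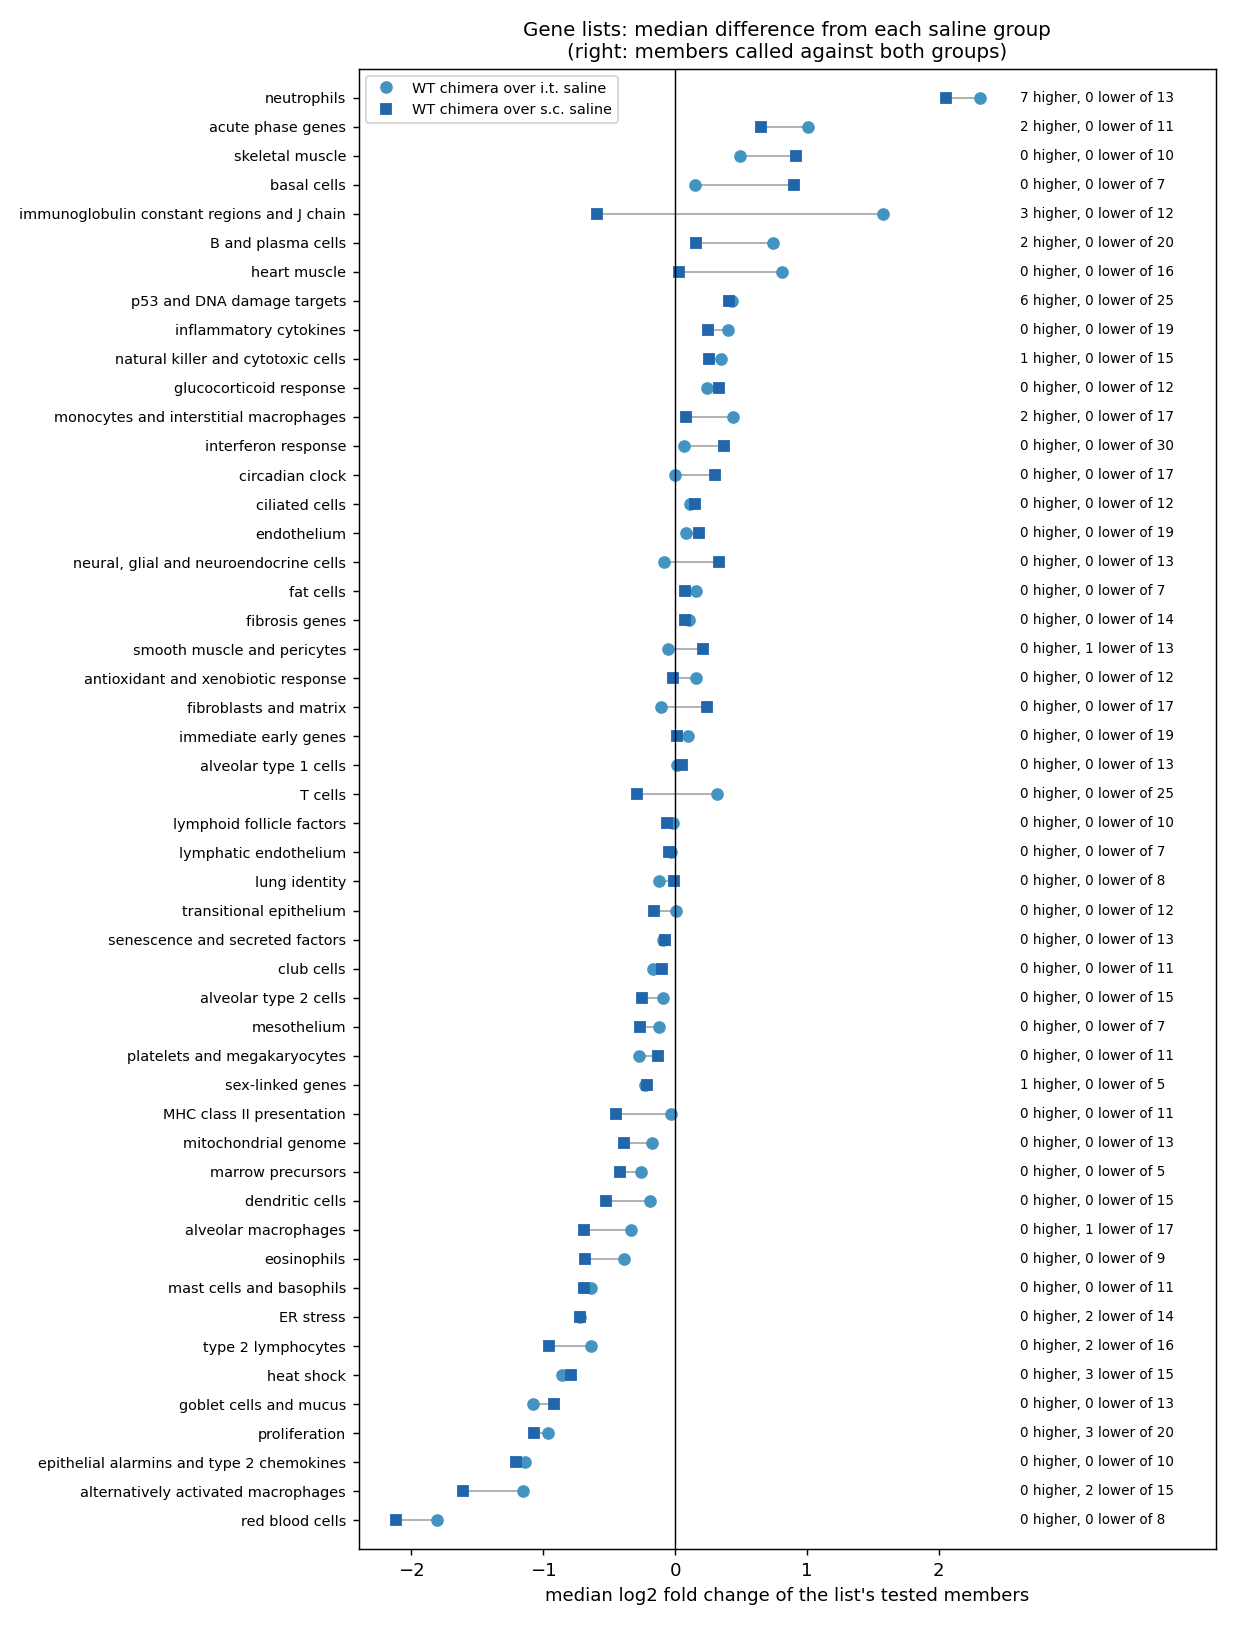
Median log2 fold change (x axis) of the tested members of each gene list (y axis), WT chimeras over intrathecal saline (i.t., light circles) and over subcutaneous saline (s.c., dark squares), with the number of members called against both groups at the right. Neutrophil genes lie highest, at 2.31 and 2.05, and red blood cell genes lowest, at -1.81 and -2.12.

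The single gene that told the saline groups apart was Ccl21d, a copy of the chemokine gene that guides lymphocytes and dendritic cells to lymphatics. It stood at 25.7 and 35.0 CPM in subcutaneous saline lungs, against 0 and 0 CPM in intrathecal saline lungs, and at 28.7 and 25.4 CPM in WT chimeras. The subcutaneous level was at least 222.7-fold higher than the intrathecal one and that of WT chimeras at least 198.7-fold higher, taking 3 counts per library as the floor. Near-identical copies of this gene share reads, so its value is uncertain.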

How the data were processed

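Lung RNA-seq was read as estimated counts per gene, which the authors deposited as 3 tables, 1 per experiment. Per the submitters' processing notes, reads were handled with FastQC 0.11.8, Trim Galore 0.6.6, STAR 2.7.5b and Salmon 1.2.1 on GRCm38. The strand setting and the annotation release are not stated in the labels.

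Of the deposited values 24.2% were not whole, and all were rounded to whole numbers. Low genes were removed by edgeR's filterByExpr (at least 10 counts, 15 in total), scaled by TMM, and tested with edgeR 4.0.16 (R 4.3.3, robust quasi-likelihood fit, Benjamini-Hochberg adjustment over all genes tested). The 6 libraries entered 1 fit of 3 groups with 3 residual degrees of freedom, and a gene was called at an adjusted p under 0.05 with the same sign against both saline groups. GOF chimeras and the RTX groups had a fit of their own. Library totals ran from 18198872 to 24393000.

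Members and the 50 gene lists (687 genes, 3 of them absent from the tables) were chosen with earlier results of these data known. Named genes were the up to 12 largest changes per direction among calls whose mean log2 CPM reached 1, up to 4 called members per list, a list of fixed genes, up to 5 per direction between the saline groups, and up to 2 members of a described list without a call. Gdf15, Psrc1, Mmp8, Cdc20, Cish and Socs2 were added after their values were seen, as were Ly6g and Retnlg. Alternatives were DESeq2 1.42.0 (size factors, and its Wald test), limma 3.58.1 voom, no low-count filter, a joint fit of all 14 libraries, a block for the replicate number, and leaving out each library. A contrast with the mean of both saline groups and a fit without the robust prior were added after seeing the data. Scripts were tested on simulated counts. Figures were drawn with matplotlib 3.10.9.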

Additional observations from a re-analysis of the deposited data

Results flagged for a closer look

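Ccl21d, a copy of the lymphatic chemokine gene, differed between the saline groups, which differed in route, volume and experiment: its edgeR adjusted p for subcutaneous against intrathecal saline was 0.0019 (n = 2 each). It stood at 25.7 and 35.0 CPM in subcutaneous saline lungs, against 0 and 0 CPM in intrathecal saline lungs. In the other libraries it was listed at 0 in 2 of the 3 subcutaneous RTX libraries, which had 0, 26.4 and 0 CPM, so that presence and absence did not follow the route.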

How the results depend on the processing

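The number of genes called depended on the processing, with 103 higher and 85 lower as reported. Higher and lower calls numbered 316 and 488 with no low-count filter, 306 and 428 by DESeq2, 272 and 498 with all 14 libraries in 1 fit, and 973 and 993 in the added contrast with the mean of both saline groups. Against intrathecal saline alone (202 as reported) these were 1001, 898 and 912 for the first 3 settings. With the replicate block the counts were 348 higher, 413 lower, 876 against intrathecal saline and 71 between the saline groups. Deviations of same-numbered libraries correlated at -0.02, 0.08 and 0.21. Resting on 1 difference per group, these values cannot decide whether the numbers pair the samples. Between the saline groups (1 gene as reported) 348 genes were called with no filter, 429 by DESeq2, 0 by limma voom, 2 with all 14 libraries and 2 without the robust prior. With 1 library left out the calls ranged from 3 to 138 higher, 0 to 370 lower, 6 to 541 against intrathecal saline, 360 to 2571 against subcutaneous saline, 1 to 25 between the saline groups, and 2514 to 3874 for GOF chimeras against RTX (4158 as reported). A lone library was then assumed to vary like the other groups. The cause of these shifts was not tested. None of the 81 genes followed changed the sign of its log2 fold change averaged over both saline groups. The sign against each saline group alone was not followed. With 2 libraries a group the spread rests on 3 residual degrees of freedom. The level of 3 counts (0.135 to 0.148 CPM) covers counting error only.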
